A study of Mus musculus with 8 samples.

Results

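The comparison described here sets Upf2 knockout Ly6Chi monocytes (2 libraries) against common monocyte progenitors (cMoP, 2 libraries), which are 4 of the 8 mouse libraries in the series. Members were taken by their labels: the knockout and cMoP columns of the expression table, and the matching intron tables, restricted to introns listed in all 4. The source names place every library in bone marrow, although the cell type field calls all of them a monocytic cell line and the growth field calls them primary cells. The cMoP libraries and the 2 control Ly6Chi libraries are described as FL_FL, with genotypes given as wild type, and the knockout libraries as Ly6Chi with Upf2 knocked out. The remaining libraries are 1 of monocyte-dendritic progenitors (MDP) and 1 of Ly6Clo monocytes. The labels name no Cre driver, age or sex and leave unsaid whether the 2 libraries of a group are from different animals; the p-values therefore reflect library-to-library spread alone, which may be technical.

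Monocytes arise in bone marrow from cMoP, which divide and make the granule proteases of the myeloid lineage, and leave that stage as Ly6Chi monocytes that express chemokine receptors, antigen presentation genes and pattern recognition receptors. UPF2 links the surveillance helicase UPF1 to exon junctions in nonsense-mediated decay (NMD), the pathway that degrades transcripts whose translation stops upstream of an exon junction. Transcripts that keep an intron often carry such a stop, which is how NMD and intron retention meet.

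The 2 exon junctions at the deleted end of Upf2 and the primers that the labels give for exons 2 and 3 are shown because they are what identifies the knockout. Capitals begin at the first base of the downstream exon, and sequences are from the main GENCODE M21 transcript of Upf2, on the plus strand of chromosome 2.
Upf2 exon 2 to 3: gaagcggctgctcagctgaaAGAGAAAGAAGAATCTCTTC
Upf2 exon 3 to 4: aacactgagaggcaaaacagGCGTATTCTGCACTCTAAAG
Upf2 ex2-3 forward primer: ggctgctcagctgaaagaga
Upf2 ex2-3 reverse primer: ttttcctctggtcggttgtc
The forward primer spans the junction of exons 2 and 3, and the reverse primer lies within exon 3. The introns removed at these junctions are chr2:5957851-5960932 and chr2:5961713-5973468 in mm10.

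In the knockout monocytes a larger share of the spliced reads into Upf2 exon 4 came from elsewhere than exon 3, while the level of the gene was not called different. Upf2 stood at 19.7 and 18.8 TPM in the cMoP libraries and 20.4 and 22.4 TPM in the knockout monocytes (log2 difference 0.15 ± 0.15 SE, adjusted p = 0.45 by limma). Reads across the junction of exons 2 and 3 numbered 38 and 16 in cMoP and 10 and 13 in the knockout. As a percentage of what a typical downstream junction received in that library, these were 42% and 22.1% in cMoP and 13.8% and 14.9% in the knockout. Both knockout libraries were lower than either cMoP library, but the counts are small and no interval was computed for this measure. Control Ly6Chi libraries stood at 49.7% and 59.6%. Of spliced reads that entered exon 4, 13 of 26 (50%, Wilson 95% interval 32.1 to 67.9) and 32 of 66 (48.5%, 36.8 to 60.3) in the knockout did not come from exon 3. The same share was 2.67% of 75 reads and 0% of 41 reads in cMoP. The other 13 and 34 reads into exon 4 in the knockout did come from exon 3. Upf2 transcripts with exon 3 therefore remained in both knockout libraries, and the loss was partial. Of reads spliced out of exon 1, 12 of 14 and 26 of 38 in the knockout did not join exon 2, against 0 of 28 and 1 of 15 in cMoP. These intervals cover counting error only, and the reads do not say which partner exon was joined.

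**Figure D1:**
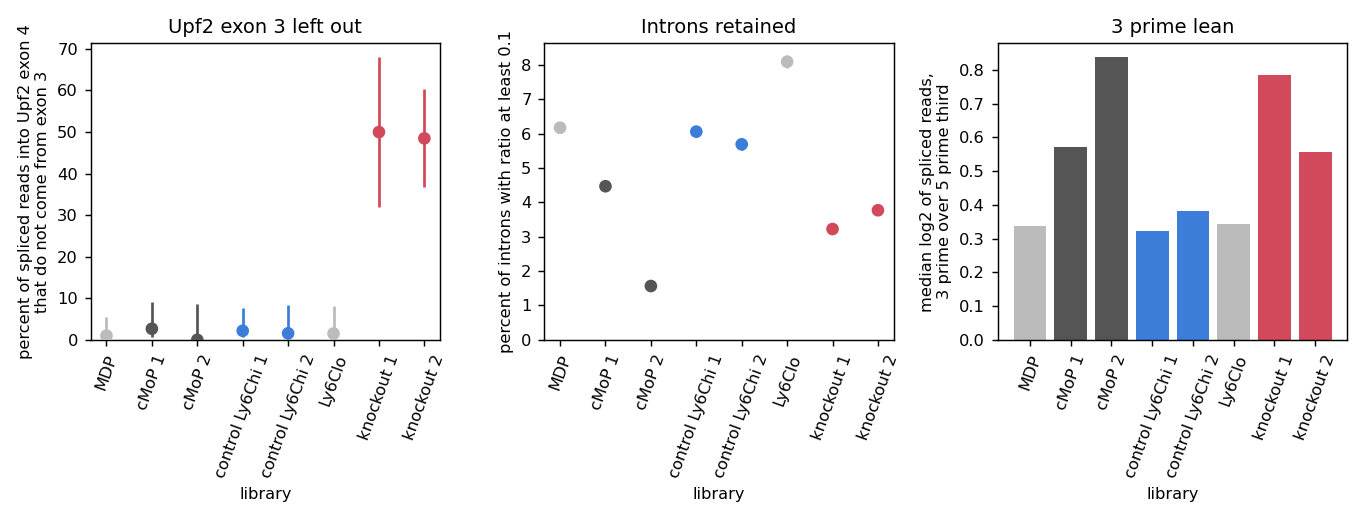
Left, percent of spliced reads into Upf2 exon 4 that do not come from exon 3, with Wilson 95% intervals. Centre, percent of introns with a retention ratio of at least 0.1, with Wilson intervals narrower than the points. Right, median log2 ratio of spliced reads at the 3 prime over the 5 prime introns of a gene. Both knockout libraries stand near 50% on the left, and cMoP and knockout overlap in the other 2 panels.

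The cMoP and knockout libraries both leaned 3 prime. As a median log2 ratio, spliced reads at the 3 prime introns of a gene over those at its 5 prime introns gave 0.57 and 0.84 in cMoP and 0.78 and 0.56 in the knockout across 5563 genes, so the groups overlapped (exact two-sided permutation p = 0.667, and 2 against 2 can reach no less than 0.333). It was 0.32 and 0.38 in control Ly6Chi monocytes, below both knockout libraries. Genotype and 3 prime lean therefore cannot be told apart wherever knockout and control Ly6Chi libraries are set against each other. Spliced reads per library ranged from 28925018 to 37833159 over the 8 libraries.

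Between cMoP and knockout monocytes, 2923 of 13126 tested genes were higher and 2799 were lower, which is 43.6% of the genes tested (22.3% higher and 21.3% lower, by limma on log2(TPM + 1), adjusted p under 0.05). The unit is TPM (length-normalised transcript share), and adding 1 before the log understates the change of low genes. The median gene differed by 0.03 on the log2 scale, and centring each library on its median moved that to -0.11. Of the changed genes, 639 rose and 284 fell by at least 4-fold on the log2(TPM + 1) scale. Without the first or the second knockout library the total of called genes was 3138 or 2802 in place of 5722. The 2 groups did not overlap for 70.7% of tested genes. Bulk samples cannot tell fewer cells of a type from less RNA per cell.

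**Figure D2:**
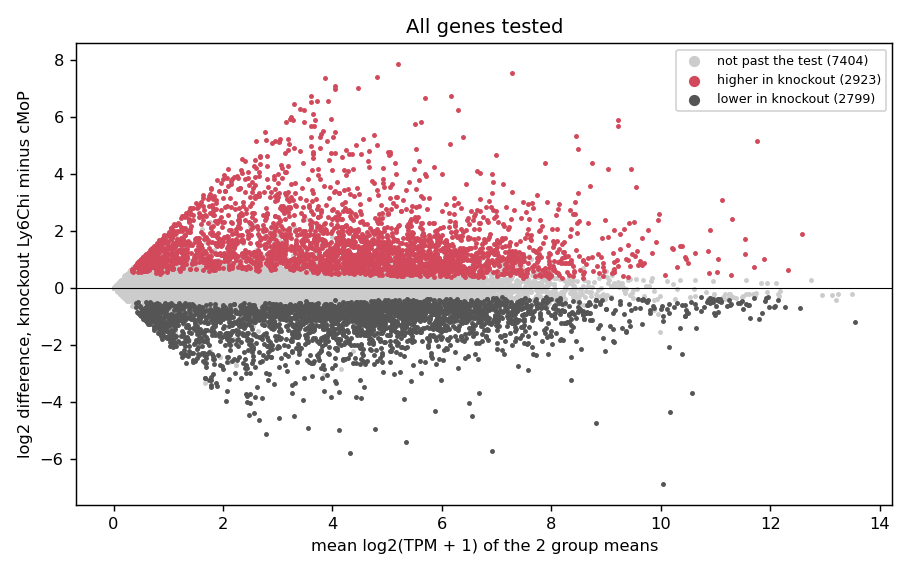
Log2 difference between knockout Ly6Chi and cMoP (vertical) against the mean of the 2 groups' log2(TPM + 1) levels (horizontal), 1 point per tested gene. Grey points did not pass the test, and 2923 and 2799 genes passed it above and below 0.

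Genes of the progenitor stage fell. In the list of primary granule proteins, the proteases and peptides that cMoP store, 13 of 15 members fell and 1 rose (median log2 difference -3.68, against 0.03 over all genes). Mpo, the myeloperoxidase of primary granules, was at 12416 and 10338 TPM in cMoP and 115 and 79.7 TPM in the knockout (log2 difference -6.87 ± 0.22 SE, adjusted p = 7.4e-05). Ctsg, the granule protease cathepsin G, was at 2226 and 2417 TPM in cMoP and 90.3 and 81.5 TPM in the knockout (log2 difference -4.74 ± 0.14 SE, adjusted p = 7e-05). For both genes the cMoP libraries lay far above the knockout libraries with no overlap. Fcnb, a ficolin, was the member that rose, from 34.5 and 22 TPM to 72.6 and 77.4 TPM (log2 difference 1.41 ± 0.22 SE, adjusted p = 0.0049). In the list of progenitor genes, 15 of the 18 that passed the filter on low values fell and none rose (median -2.79). Kit, the stem cell factor receptor, was at 50 and 31 TPM in cMoP and 0.18 and 0.13 TPM in the knockout (log2 difference -5.13 ± 0.26 SE, adjusted p = 0.0002), and Myb, a transcription factor of immature blood cells, fell from 187 and 123 TPM to 8.2 and 10.1 TPM (log2 difference -3.92 ± 0.24 SE, adjusted p = 0.00029). Flt3 was not called (4.19 and 0.88 TPM in cMoP and 6.49 and 4.58 TPM in the knockout, adjusted p = 0.13).

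Monocyte genes rose. Of 27 Ly6Chi monocyte genes 24 rose and 1 fell (median 4.36). Fn1, which encodes fibronectin, was at 15.6 and 6.09 TPM in cMoP and 1957 and 2084 TPM in the knockout (log2 difference 7.54 ± 0.39 SE, adjusted p = 0.00021). Vcan, the proteoglycan versican, was at 0.38 and 0.35 TPM and 141 and 112 TPM (log2 difference 6.54 ± 0.25 SE, adjusted p = 9.5e-05). Neither gene's groups overlapped. Ly6c2, which encodes the antigen that names the population, was already at 4875 and 3518 TPM in cMoP and stood at 4472 and 4817 TPM in the knockout (adjusted p = 0.5). Plac8 was the member that fell (4704 and 5392 TPM to 3238 and 3119 TPM, log2 difference -0.66 ± 0.13 SE, adjusted p = 0.0092). Of 21 tested Ly6Clo monocyte genes 14 rose and none fell, among them Nr4a1, the nuclear receptor of that subset (7.03 and 1.17 TPM to 95.8 and 52.2 TPM, log2 difference 4.10 ± 0.68 SE, adjusted p = 0.0059). Among 22 monocyte transcription factors 13 rose and 2 fell. Gfi1, a repressor active in granulocyte progenitors, fell from 22.4 and 19.2 TPM to 0.38 and 0.32 TPM (log2 difference -4.01 ± 0.18 SE, adjusted p = 0.00014).

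Markers of other cell types were read in the same libraries. Of 15 tested neutrophil markers 11 rose and none fell (4 rose without the first knockout library), with a summed level of 535 and 444 TPM in cMoP and 2633 and 1965 TPM in the knockout. In the control Ly6Chi libraries the sum was 1779.6 and 2195 TPM. Of the 16 markers none was at 0 in both knockout libraries and 1 was at 0 in both cMoP libraries. Monocytes express some of them too (S100a8, S100a9), and which cells the rise came from was not tested. Of 9 tested macrophage markers 5 rose and 1 fell, and their sum went from 19.1 and 7.41 TPM in cMoP to 102 and 106 TPM in the knockout, with 163 and 158 TPM in the controls. Without the second knockout library 3 of them rose. Of 9 tested markers of eosinophils, basophils and mast cells 4 fell and 1 rose, with a sum of 42 and 22.6 TPM in cMoP and 13 and 13.8 TPM in the knockout and 18.9 and 31.5 TPM in the controls, and without either knockout library in turn 2 fell. Of the 12 markers in each of these lists, 1 macrophage marker was at 0 in both knockout libraries and 1 of each list at 0 in both cMoP libraries. For comparison, 22.3% of all genes tested rose and 21.3% fell. Of 8 tested B and plasma cell markers 1 fell and none rose (median log2 difference 0.22). Of 7 erythroid markers 2 fell and none rose, although their median was 1.32. Of 9 dendritic cell markers 2 rose and 1 fell (median 0.46). The part of these markers in the differences described above and below was not tested. None of 12 markers of T and NK cells passed the filter, and their summed level was 2.02 and 1.88 TPM in the knockout.

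**Figure D3:**
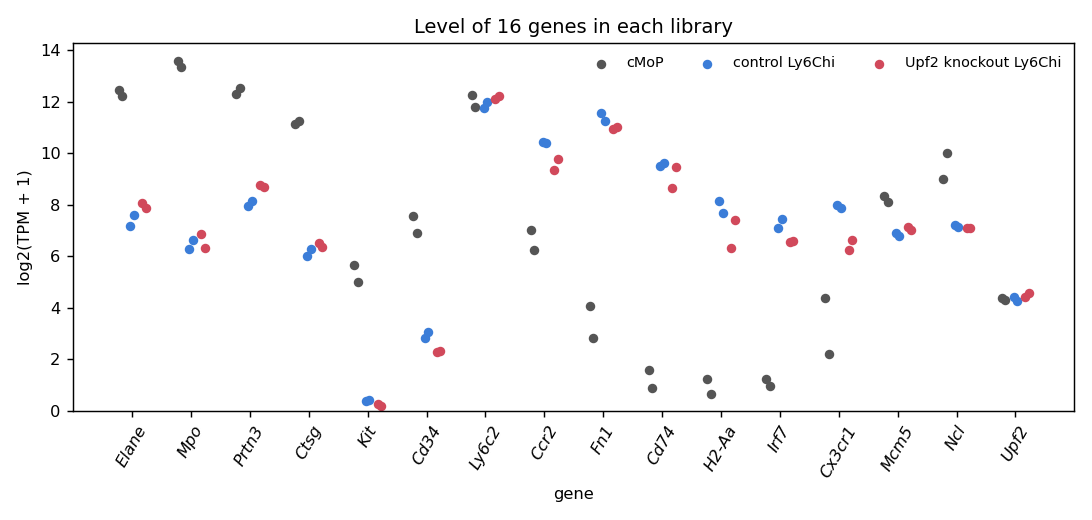
Level, as log2(TPM + 1), of 16 genes picked after their values were seen, in each cMoP, control Ly6Chi and knockout library (1 point per library). Granule and progenitor genes are high in cMoP, Ly6c2 and Upf2 are at similar levels in all 3 groups, and the monocyte genes are high in both Ly6Chi groups.

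Antigen presentation genes rose. Of 11 members of the MHC class II and peptide loading list 9 rose and none fell (median 3.55). Cd74, the invariant chain that escorts class II molecules, was at 1.98 and 0.83 TPM in cMoP and 401 and 703 TPM in the knockout (log2 difference 7.83 ± 0.33 SE, adjusted p = 0.00012). H2-Aa, a class II chain, was at 1.36 and 0.58 TPM and 79.8 and 170.2 TPM (log2 difference 5.93 ± 0.40 SE, adjusted p = 0.00041). The second knockout library was the higher for both genes, and both knockout libraries lay above both cMoP libraries. Of 11 MHC class I and peptide loading genes 6 rose and 1 fell (median 0.79), with H2-D1 going from 654 and 464 TPM to 1616 and 1719.9 TPM (log2 difference 1.60 ± 0.20 SE, adjusted p = 0.0024) and Erap1, an aminopeptidase that trims peptides, from 48.9 and 40 TPM to 23.5 and 30.8 TPM (log2 difference -0.70 ± 0.18 SE, adjusted p = 0.026). Without the second knockout library 2 class I genes were called higher, and without the first 4 were.

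Interferon response genes rose, with 27 of 30 higher and none lower (median 2.47). Irf7, a transcription factor that amplifies the interferon response, was at 1.31 and 0.93 TPM in cMoP and 92.7 and 95 TPM in the knockout (log2 difference 5.49 ± 0.18 SE, adjusted p = 7.4e-05). Oas2, which senses double-stranded RNA, was at 0.16 and 0.11 TPM and 24.4 and 22.8 TPM (log2 difference 4.44 ± 0.18 SE, adjusted p = 0.00012). Ifit2 was not called (7.54 and 2.83 TPM and 5.34 and 7.64 TPM, adjusted p = 0.5). Control Ly6Chi libraries held 136 and 175 TPM of Irf7 and 36 and 43.9 TPM of Oas2. Against the same cMoP libraries the median of the list was 3.35 in the control step, and knockout minus control had a median of -0.72 with no member called in either direction.

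The 250 bases before each RefSeq start (GRCm38.p6) were read on either strand for a form of the interferon-stimulated response element. This form is GAAA followed by any 2 bases and GAAA again. It occurred for 9 of the 21 interferon genes with a promoter in the table (42.9%), against 3.46% of 27025 genes in all. The list was made of known interferon response genes, so a high share was to be foreseen and does not bear on their rise here. Bst2, 1 of the 9, was not called (log2 difference -0.36 ± 0.25 SE, adjusted p = 0.29 by limma). The promoters of Isg15, a ubiquitin-like modifier, and Ifit1, which binds foreign RNA, are shown with matches in capitals.
Isg15 promoter, chr4:156200819-156201068, minus strand: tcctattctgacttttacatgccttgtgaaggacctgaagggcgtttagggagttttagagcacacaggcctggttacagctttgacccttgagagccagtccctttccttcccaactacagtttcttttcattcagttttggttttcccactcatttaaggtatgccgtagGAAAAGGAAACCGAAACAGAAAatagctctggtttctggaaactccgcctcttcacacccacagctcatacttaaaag
Ifit1 promoter, chr19:34640639-34640888, plus strand: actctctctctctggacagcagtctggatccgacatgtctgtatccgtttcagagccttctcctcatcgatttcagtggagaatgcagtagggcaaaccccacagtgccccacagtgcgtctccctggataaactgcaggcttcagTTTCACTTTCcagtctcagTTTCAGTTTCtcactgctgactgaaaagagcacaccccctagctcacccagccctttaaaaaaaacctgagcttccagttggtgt
A match describes these letters and does not show binding. In all 12 motifs were searched over 8 lists. CACGTG was held by 1 of 23 ribosome biogenesis genes and 6 of 23 lysosome and phagocytosis genes against 6.86% of all genes, and GGCGGGAA by 1 of 22 DNA replication genes against 2.13%. All 12 were picked with the expression values known, and 9 of them, given next, were added in the course of the search after these 3; GAGGAA lies within the longer GAGGAAGT. Among interferon genes and then among all genes, CCGGAAGT was held by 1 of 21 and by 3.23%, TTGCNNAA was held by 0 of 21 and by 10.8%, GCGGAAG was held by 0 of 21 and by 5.08%, CCAAT was held by 8 of 21 and by 37.5%, TGACGTCA was held by 0 of 21 and by 1.77%, TTTGAA was held by 3 of 21 and by 18.3%, GAGGAA was held by 7 of 21 and by 25.9%, TGANTCA was held by 4 of 21 and by 7.82%, GAGGAAGT was held by 0 of 21 and by 2.79%. Other lists also exceeded the share of all genes, and only some of these cases are given here. In the DNA replication list CCAAT was held by 14 of 22 genes, GCGGAAG by 5 of 22 and CCGGAAGT by 4 of 22. Among MHC class II genes CCAAT was held by 6 of 8 and TGANTCA by 3 of 8, and GAGGAAGT was held by 3 of 13 primary granule genes.

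Genes of uptake, sensing and migration rose. Of 29 tested lysosome and phagocytosis genes 25 rose and 1 fell (median 1.58). Msr1, a scavenger receptor, was at 0.31 and 0.21 TPM in cMoP and 63.9 and 84.4 TPM in the knockout (log2 difference 5.89 ± 0.19 SE, adjusted p = 7.4e-05), while Cd63, a tetraspanin of granules and lysosomes, fell from 47.6 and 49.8 TPM to 3.93 and 2.35 TPM (log2 difference -3.61 ± 0.23 SE, adjusted p = 0.00036). Of 19 tested Toll-like receptor and signalling genes 16 rose and none fell (9 rose without the second knockout library), with Tlr7, a sensor of single-stranded RNA, at 0.73 and 0.13 TPM and 32.6 and 33.7 TPM (log2 difference 4.61 ± 0.35 SE, adjusted p = 0.00054). Of 16 chemokine and growth factor receptors 14 rose and none fell (9 rose without the second knockout library). Ccr2, the receptor monocytes use to leave the marrow, was at 129 and 74.1 TPM in cMoP and 656 and 883 TPM in the knockout (log2 difference 2.95 ± 0.28 SE, adjusted p = 0.0011). Control Ly6Chi libraries held 1401 and 1357 TPM. Cx3cr1, the fractalkine receptor, was at 19.8 and 3.59 TPM and 74.3 and 96.7 TPM (log2 difference 3.13 ± 0.66 SE, adjusted p = 0.013), with 253 and 233 TPM in the controls. For Ccr2 and Cx3cr1 both knockout libraries lay between the cMoP and the control libraries, and the difference between knockout and control was not called (adjusted p = 0.34 and 0.35). In the inflammatory and immediate early list, 15 of 27 members were higher and 1 was lower. Within that list Il1b, a cytokine, was at 1.5 and 0.29 TPM in cMoP and 31.4 and 9.15 TPM in the knockout (log2 difference 3.34 ± 0.78 SE, adjusted p = 0.018). The 2 knockout libraries differed about as much as the 2 control libraries (6.58 and 24.6 TPM), and without the first knockout library 5 of these genes were called higher.

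Growth machinery fell. All 27 ribosome biogenesis genes were lower (median -1.98), with Gnl3, a nucleolar GTPase, at 77.3 and 123 TPM in cMoP and 10.6 and 11.3 TPM in the knockout (log2 difference -3.04 ± 0.23 SE, adjusted p = 0.00059). All 27 DNA replication genes were lower as well (median -1.10), with Mcm2, a subunit of the replicative helicase, at 162 and 158 TPM and 41 and 44.9 TPM (log2 difference -1.88 ± 0.12 SE, adjusted p = 0.00035). Of 28 cytosolic ribosomal protein genes 18 fell and none rose (median -0.43), and after centring on the median 11 fell, and without the second knockout library 8. Of 26 mitosis genes 4 rose and 1 fell (median 0.14), both below the shares over all genes of 22.3% and 21.3%, with Ccnb2, a cyclin of mitosis, at 88.3 and 77.6 TPM and 138 and 155 TPM (log2 difference 0.81 ± 0.14 SE, adjusted p = 0.006), and none rose without the second knockout library. Amino acid and integrated stress genes split, 10 of 19 lower and 3 higher. Phgdh, which starts serine synthesis, fell from 289.9 and 451 TPM to 22.5 and 19.2 TPM (log2 difference -4.06 ± 0.23 SE, adjusted p = 0.00025), and Nupr1, a stress-induced chromatin protein, rose from 2.55 and 8.56 TPM to 155 and 160.4 TPM (log2 difference 4.77 ± 0.44 SE, adjusted p = 0.001). Of 16 tested p53 targets 6 rose and 2 fell, and of 16 nuclear lamina and envelope genes 5 rose and 3 fell (3 or 1 rose without the first or the second knockout library).

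Spliceosome genes fell. Of 36 core spliceosome genes 25 fell and 1 rose (median -0.79), and 11 or 12 fell without the first or the second knockout library. Snrpf, a protein of the Sm ring, was at 223 and 279 TPM and 105 and 109 TPM (log2 difference -1.22 ± 0.14 SE, adjusted p = 0.0018). Splicing regulators were lower for 19 of 46 members and higher for 1, and 12 were lower without the first knockout library. Ptbp1, a repressor of exon inclusion, was at 478 and 479 TPM and 199 and 252 TPM (log2 difference -1.09 ± 0.14 SE, adjusted p = 0.0026). Of 20 NMD factors 5 fell and 2 rose (median -0.02), near the shares of 21.3% and 22.3% over all genes, and without either knockout library in turn none fell and 1 rose. Of 27 reported NMD targets, transcripts that other studies found raised when NMD is lost, 12 fell and 3 rose (median -0.42). In the control step from the same cMoP libraries 14 fell and 5 rose (median -0.62). Knockout minus control had a median of 0.20 for the list, against -0.12 over all genes, with no member called in either direction. Snhg15, a snoRNA host, was at 67.2 and 87.3 TPM in cMoP and 19.4 and 11.7 TPM in the knockout (log2 difference -2.27 ± 0.30 SE, adjusted p = 0.0028), and control Ly6Chi libraries held 10.7 and 15.7 TPM. Atf3, a stress-induced transcription factor on the same list, was at 6.25 and 0.37 TPM and 282 and 58.1 TPM (log2 difference 5.36 ± 1.13 SE, adjusted p = 0.013), with 66.6 and 260.1 TPM in the controls.

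**Figure D4:**
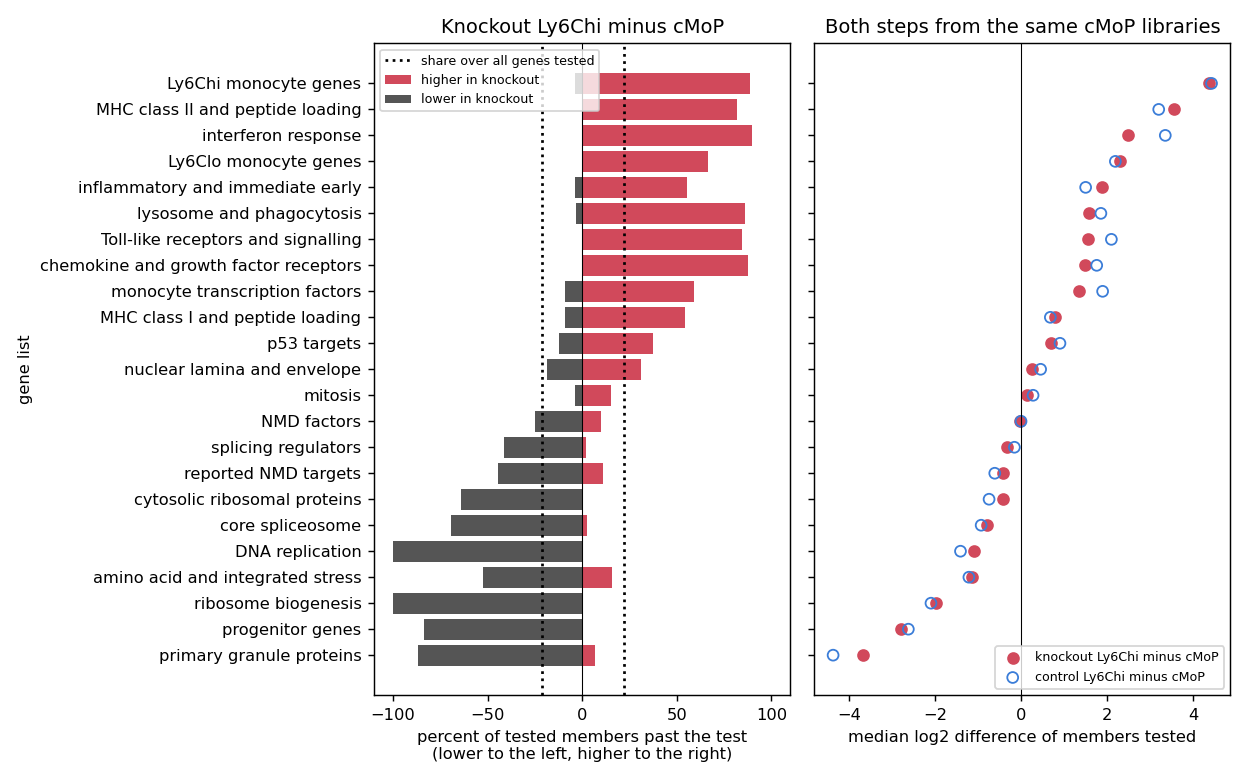
Left, percent of each list's tested members that were higher (right of 0) or lower (left of 0) in knockout Ly6Chi than in cMoP, with dotted lines at the shares over all genes tested (22.3% and 21.3%). Right, median log2 difference of the members in the knockout step (filled) and in the control step (open), which share the cMoP libraries; the lists run from primary granule proteins to Ly6Chi monocyte genes in both.

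The step from cMoP to control Ly6Chi monocytes used the same cMoP libraries, so its values stand beside those of the knockout as a description. It gave 4235 higher and 3053 lower genes (55.5%; 32.3% and 23.3%). Which direction held more genes depended on the scale: median centring gave 3354 higher and 4462 lower, and quantile normalisation 3695 and 4423. For the knockout step these scalings gave 2874 higher and 3389 lower, and 3086 and 3701. Primary granule proteins fell for 13 of 15 in each step (median -3.68 in the knockout and -4.37 in the control), and Ly6Chi monocyte genes rose for 24 of 27 in each (4.36 and 4.42). Medians for Toll-like receptors were 1.56 and 2.09, and for monocyte transcription factors 1.34 and 1.89.

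The difference between knockout and control Ly6Chi libraries was tested directly, and limma called 1 of 13126 genes (0.00762%). That gene, Gm27517, was at 0 in both knockout libraries and at 8.51 and 9.83 TPM in the controls. It was at 0.2 and 0 TPM in cMoP, and knockout minus cMoP was not called (log2 difference -0.13 ± 0.18 SE, adjusted p = 0.6 by limma). In knockout minus control, 1910 genes had an unadjusted p under 0.05 by limma. A p that misses the threshold does not show that the libraries are alike. The genes below were picked after their values were seen. Lyz1, a lysozyme, was at 151 and 101 TPM in the knockout and 22.8 and 30.1 TPM in the controls (log2 difference 2.19 ± 0.26 SE, adjusted p = 0.3). Cd209a, a lectin of monocyte-derived dendritic cells, was at 2.06 and 4.36 TPM and 16.6 and 16.9 TPM (-2.13 ± 0.29 SE, adjusted p = 0.31). The groups did not overlap for either gene, but the share of all genes without overlap between knockout and control was not counted.

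Intron retention was compared on tables that differ between the knockout and the other libraries. The knockout tables list 204370 introns and mark 36004 of them as overlapped on the opposite strand, while the cMoP and control tables list 205984 and mark none. They also mark 3681 introns as known exons, against 2968 in the other tables. Genotype and intron list therefore cannot be told apart for a signal found in the knockout alone. Introns marked in any of the 4 tables were left out, and 35392 introns of 6472 genes had enough reads to test.

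Introns whose retention ratio reached 0.1 or more made up 4.47% and 1.57% in cMoP and 3.23% and 3.77% in the knockout, of 77951 introns with reads in each of the 4 libraries. The knockout libraries lay between the 2 cMoP libraries (exact two-sided permutation p = 1). Control Ly6Chi libraries stood at 6.06% and 5.69%. The mean difference of 0.48 percentage points became -0.97 without the second cMoP library.

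Per intron, edgeR's quasi-likelihood test on reads across the 2 exon-intron boundaries relative to spliced reads called 6 introns higher and 3 lower in the knockout (9 of 35392, 0.0254%; 0.0170% higher and 0.00848% lower), with 1695 at an unadjusted p under 0.05. Each of the 9 carried a deposited warning in at least 1 of the 4 libraries, as did most introns tested (1286 of 35392 carried none). When boundary and spliced reads were scaled apart, which removes an overall shift between libraries, 112 introns were higher and 33 lower (0.410% in all, 0.316% higher and 0.0932% lower). The count rests on the cMoP libraries: without the first 1281 were higher and 64 lower, without the second 29 and 60, and without either knockout library none was called.

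The exon ends that flank some of the coding introns described next are shown, with capitals for the 20 bases after the intron.
Orc3 exon 13 to 14: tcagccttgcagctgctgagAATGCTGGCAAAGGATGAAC
Adssl1 exon 2 to 3: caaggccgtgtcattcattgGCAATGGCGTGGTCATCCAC
H2-Ab1 exon 1 to 2: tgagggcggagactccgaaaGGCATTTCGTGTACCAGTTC
Elane exon 3 to 4: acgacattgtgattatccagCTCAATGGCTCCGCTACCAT
Of the 6 introns higher in the knockout, 5 had their added reads mostly at 1 boundary. Such one-ended reads, taken in the group with more of them, were found for 41.3% of all introns tested (14616 of 35392). Cpsf2, a subunit of the 3 prime end cleavage complex, has its first intron at chr12:101976135-101981913, in the 5 prime untranslated region. Its left boundary was crossed by 2 and 1 reads in cMoP and 156 and 160 in the knockout. Control libraries had 0 and 2 such reads (log2 difference 6.68 ± 0.56 SE, adjusted p = 0.0055). The deposited retention ratio of that intron, which rests on depth along its length, was 0.0042 and 0.0015 in cMoP and 0.0037 and 0.004 in the knockout. In Orc3, an origin recognition subunit, the intron chr4:34579877-34584803 had 4 and 2 left boundary reads in cMoP and 59 and 53 in the knockout (log2 difference 5.84 ± 0.68 SE, adjusted p = 0.043 by edgeR). Its deposited ratios overlapped, at 0.0051 and 0.0013 in cMoP and 0.0043 and 0.0056 in the knockout, with 0.014 and 0.01 in the controls. In Adssl1, an adenylosuccinate synthase, the intron chr12:112628404-112632253 had 2 and 0 right boundary reads in cMoP and 75 and 57 in the knockout (log2 difference 5.48 ± 0.55 SE, adjusted p = 0.019), and a second Adssl1 intron was called as well. In Sema4d, a semaphorin, the intron chr13:51734571-51763251 had 10 and 4 left boundary reads in cMoP, 112 and 195 in the knockout and 480 and 404 in the controls (log2 difference 4.50 ± 0.44 SE, adjusted p = 0.017), so the control libraries were high too.

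In Haus1, a subunit of the spindle complex augmin, the intron chr18:77758518-77759436 was crossed at both boundaries. It had 36 and 32 left and 57 and 31 right boundary reads in the knockout, and 10 and 5 left and 11 and 6 right in cMoP. Its ratio was 0.03 and 0.014 in cMoP and 0.23 and 0.267 in the knockout, with 0.014 and 0.033 in the controls (log2 difference 4.13 ± 0.46 SE, adjusted p = 0.033), and the gene's own level fell (-1.61 ± 0.15 SE on the log2 scale, adjusted p = 0.0011). Both knockout libraries stood above every cMoP and control library. Ifi27, an interferon-induced gene, had a ratio of 0.0053 and 0.0022 in cMoP and 0.087 and 0.111 in the knockout at chr12:103434351-103435421, called only when the reads were scaled apart (log2 difference 6.02 ± 0.91 SE, adjusted p = 0.00081).

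The 3 introns lower in the knockout were in Apoe, H2-Ab1 and Rpl21. Apoe, a lipid carrier, had a ratio of 0.374 and 0.477 in cMoP and 0.027 and 0.035 in the knockout at chr7:19698474-19699010 (log2 difference -4.73 ± 0.37 SE, adjusted p = 0.004), with 57 and 26 spliced reads in cMoP and 1961 and 1086 in the knockout. In H2-Ab1, a class II chain, the intron chr17:34263406-34264760 was crossed by 34 and 17 right and 0 and 0 left boundary reads in cMoP, next to 13 and 5 spliced reads. In the knockout 24 and 36 boundary reads stood next to 378 and 546 spliced reads (log2 difference -5.45 ± 0.41 SE, adjusted p = 0.004). The deposited ratios of that intron overlapped, at 0.018 and 0.03 in cMoP and 0.011 and 0.019 in the knockout. Rpl21 encodes a ribosomal protein (chr5:146833567-146834183, log2 difference -2.46 ± 0.26 SE, adjusted p = 0.028), with ratios of 0.0024 and 0.0023 and 0.00065 and 0.0007. Called with the reads scaled apart but not otherwise by edgeR, the Elane intron chr10:79887125-79887565 went from a ratio of 0.023 and 0.018 to 0.0033 and 0.0026 (log2 difference -2.73 ± 0.41 SE, adjusted p = 0.00065), and the last intron of Cd68, a lysosomal glycoprotein, from 0.142 and 0.062 to 0.036 and 0.026 (log2 difference -1.60 ± 0.31 SE, adjusted p = 0.013).

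Tested directly against control Ly6Chi, 1 intron was called, the Cpsf2 intron above (0.00283%), and scaled apart 44 were higher and 11 lower in the knockout (0.155%; 0.124% and 0.0311%). That balance turned in other settings, with 67 higher and 492 lower on the 4 libraries alone. With all reads on 1 scale it was 69 and 500 without the first cMoP library and 62 and 443 without the second, and scaled apart it was 131 and 176, and 121 and 164. No intron of the interferon list (which does not hold Ifi27), the NMD factors or the DNA replication genes was called in the step from cMoP by either scaling. These lists held 57, 120 and 197 tested introns, too few for a count of 0 to stand apart from the shares of 0.0254% and 0.410% over all introns. Scaled apart, 3 introns of the inflammatory and immediate early list were lower (of 38), and 2 were higher in each of ribosome biogenesis (of 182), core spliceosome (of 247) and lysosome and phagocytosis genes (of 122), where 2 were lower as well.

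**Figure D5:**
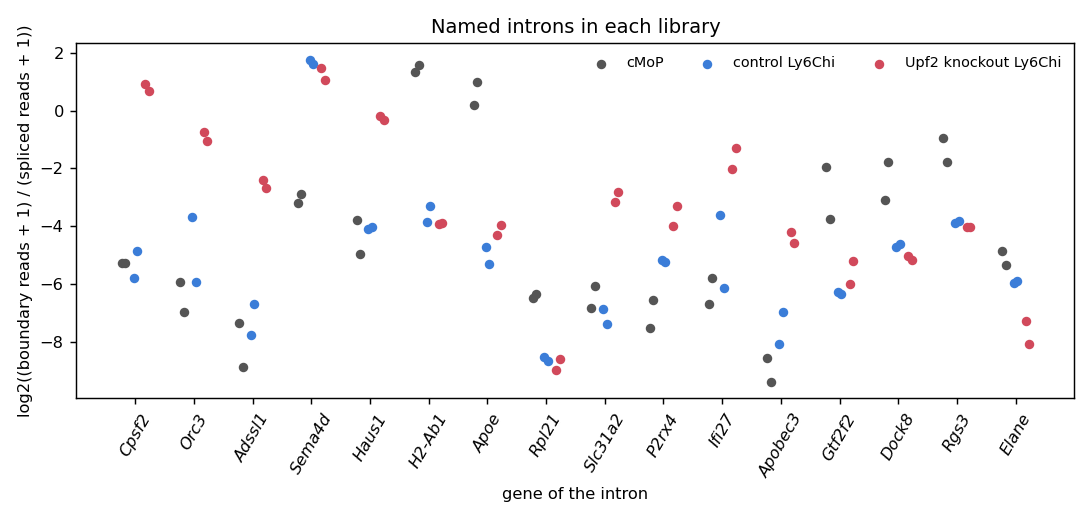
Log2 ratio of boundary to spliced reads (1 added to each) for the named introns, 1 point per library. Cpsf2, Orc3, Adssl1 and Haus1 lie higher in both knockout libraries than in any cMoP or control library, Sema4d is high in both Ly6Chi groups, and H2-Ab1 and Apoe lie higher in cMoP than in either Ly6Chi group.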

How the data were processed

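RNA was poly-A selected and sequenced as stranded paired reads, per the labels' protocols. The submitters' processing notes name FastQC, Trimmomatic, STAR 2.5.2a and RSEM, and the builds mm10 and hg38. The deposited expression table is named for FPKM, but each column sums to 1000000, so the values were treated as TPM. The deposited intron tables hold read counts at boundaries and junctions per intron, a covered fraction, depth as a signal, and a retention ratio; the program that made them is not given in the sources used here. Genes with at least 1 TPM in 2 libraries entered limma 3.58.1 on log2(TPM + 1), with all 8 libraries sharing 1 estimate of spread, and Benjamini-Hochberg adjustment. Introns with at least 20 boundary plus spliced reads in each of 4 libraries and 20 boundary reads in all entered edgeR 4.0.16, with DESeq2 1.42.0 as an alternative. Retention ratios are fractions of the authors, recomputed here within 0.0001 for at least 95.2% of introns. Named genes are the 10 largest rises and falls plus the largest members of each list and those that did not pass; named introns are the 6 largest in each direction and called introns in listed genes. The members and gene lists were chosen with earlier results of these data known. Whether replicate numbers pair samples cannot be settled from 2 libraries a group (correlation of deviations between cMoP and knockout -0.14). No block was used in the main fits. Both models were tested on simulated data.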

Additional observations from a re-analysis of the deposited data

Results flagged for a closer look

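Against control Ly6Chi, which shares its cMoP starting libraries, the knockout step differed by the direct test in 1 gene and 1 intron. Gm27517 differed by -3.34 on the log2 scale (limma, adjusted p = 0.032), with both knockout libraries at 0 and the cMoP libraries at 0.2 and 0 TPM. The first Cpsf2 intron differed by 6.53 on the log2 scale in the boundary to spliced ratio (edgeR, adjusted p = 0.018), with nearly all its boundary reads in the knockout at the left edge. No explanation was tested for either.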

How the results depend on the processing

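Expression counts for knockout minus cMoP stayed within 1.5 times of 5722 under each other alternative, and fell to between 2802 and 3138 without a knockout library; leaving out others gave up to 7225. Among named genes, 39 lost their call under at least 1 alternative. With the replicate block 4821 genes were called, and with the knockout numbers crossed 6422. For control minus cMoP, leaving out a control library gave 3774 to 4005, and leaving out any 1 library 3774 to 8794. Counts of 10 gene lists moved by over 1.5 times under at least 1 alternative (29 cases in all). Of the gene lists, NMD factors reversed: 1 member called lower and 2 higher without a filter, and 0 lower without either knockout library. No named gene changed direction while called. Knockout minus control expression gave 0 genes with pseudocount 0.1, at least 5 TPM, the replicate block, the crossed block or only the groups compared, 3 with quantile normalisation, and 0 when any 1 library was left out.

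Retention for knockout minus cMoP, 9 introns as reported, gave 58 with DESeq2, 145 with boundary and spliced reads scaled apart, 134 without a filter, 5 at 50 or more reads, 5 among introns without a warning, 0 on the 4 libraries alone, 5 with the replicate block, 4 with it crossed, and 0 to 1345 when a library was left out. Scaled apart, leaving out a library gave 47 to 530. Knockout minus control, 1 intron as reported, gave 19 with DESeq2, 55 scaled apart, 133 without a filter, 3 without warnings, 559 on the 4 libraries alone, 0 with the replicate block or its crossed form, and 0 to 569 when a library was left out; scaled apart, 55 became 39 to 307. The share of introns retained reversed to -0.97 without the second cMoP library and ranged up to 1.93 without the first. The cause was not tested for any of these. None of the 9 introns was among the 5 called in the fit of introns without a warning. With 2 libraries a group, depth and number of libraries limit what the tests could call.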
